A study of Saccharomyces cerevisiae with 18 samples.

Results

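The arrays described here come from yeast cells exposed to 1 of 3 enediynes, calicheamicin, esperamicin A1 or neocarzinostatin, and from cells given the methanol vehicle. They were chosen by their titles and number 12 of the 18 arrays of the series, 9 enediyne arrays (3 per compound) that were treated as 1 class and 3 vehicle arrays. The study asked how the transcriptome of *Saccharomyces cerevisiae* responds to agents that cleave DNA, and the question addressed here is which response the 3 compounds share. The other 6 arrays of the series, from γ-irradiated and mock-irradiated cells, entered only the estimate of the spread.

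All cultures were of the haploid strain DBY747, a MATa strain with *his3*, *leu2*, *ura3* and *trp1* mutations, and the controls carried the same markers. Cells grew in YPD medium to mid-log phase and were exposed at ambient temperature for 15 min. The doses were 1 nM calicheamicin, 3 nM esperamicin A1 and 4 nM neocarzinostatin, each chosen to kill 20 to 25% of the cells, and the vehicle cultures received methanol, the solvent of the stocks. Neocarzinostatin was given as its chromophore, extracted into methanol away from its carrier protein. Each group held 3 biological replicates with 1 Affymetrix YG-S98 array each, and the labels of the replicates give only their numbers. Because 1 culture medium, 1 strain and 1 exposure time were used, the values describe mid-log cells of this strain at that time.

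Enediynes bind in the minor groove of DNA and, once activated by a thiol, rearrange to a diradical that takes hydrogen atoms from the sugars of the backbone, which leaves single-strand and double-strand breaks. In budding yeast such breaks are sensed by the kinases Mec1 and Tel1, which signal through Rad53 and Dun1, and the best known transcriptional output of this pathway is the induction of the ribonucleotide reductase genes and of repair genes. Calicheamicin and esperamicin A1 carry the same kind of bicyclic warhead with a trisulfide trigger, whereas the chromophore of neocarzinostatin has a core of another shape that bears an epoxide.

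The values are linear RMA intensities that were converted to log2 for all tests, and each of 5656 genes is represented by 1 probe set. Array medians lay between 16.04 and 16.8. Of the a-cell markers, the a-factor genes *MFA1* and *MFA2* were bright, at 695 to 1817 in the enediyne arrays and 937 to 1778 in the vehicle arrays. *STE2*, *BAR1* and *AGA2* had medians of 82.6, 60 and 69 over the 12 arrays, and *STE6* had 10.8. *STE6* thus lay below the α-cell markers *STE3* (18.5) and *SAG1* (51.65), so not every a-cell marker was above the α-cell ones. The α-cell markers reached at most 61.7 with the enediynes and 59.2 with methanol, the markers of meiotic cells at most 30.8 and 24.9, and no list of markers separated the enediyne arrays from the vehicle arrays (summed intensity of the 6 a-cell markers 2204 to 3681 with the enediynes and 2398 to 3104 with methanol, of the 4 α-cell markers 88.3 to 113 and 91.2 to 107, of the 5 meiotic markers 43.5 to 63.2 and 42.1 to 62.8).

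Methanol vehicle replicate 1 stood apart from the other 11 arrays. Its correlation with them was 0.956 to 0.974 across genes, whereas the other 11 correlated with each other at 0.977 to 0.996. It held the highest of the 12 values in 1121 genes and the lowest in 1487, against 220 to 680 and 187 to 576 genes for any other array. The actin control has probe sets at both ends of the transcript, and their 5′ minus 3′ log2 difference, which falls as RNA is truncated, was −3.59 in this array, −0.97 and −0.77 in the other vehicle arrays, −2.34, −1.86 and −1.53 in the esperamicin A1 arrays and −1.34 to −0.74 in the other 6 enediyne arrays. The class averaged −1.28 ± 0.54 (SD, n = 9) and the vehicle −1.78 ± 1.58 (SD, n = 3), with an exact two-sided permutation p of 0.436. For the *SPT15* control probe sets the means were −3.21 ± 0.68 (SD, n = 9) and −3.52 ± 0.77 (SD, n = 3), with an exact two-sided permutation p of 0.482. Values without methanol vehicle replicate 1 are therefore given beside the list medians and beside many named genes below.

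**Figure D1:**
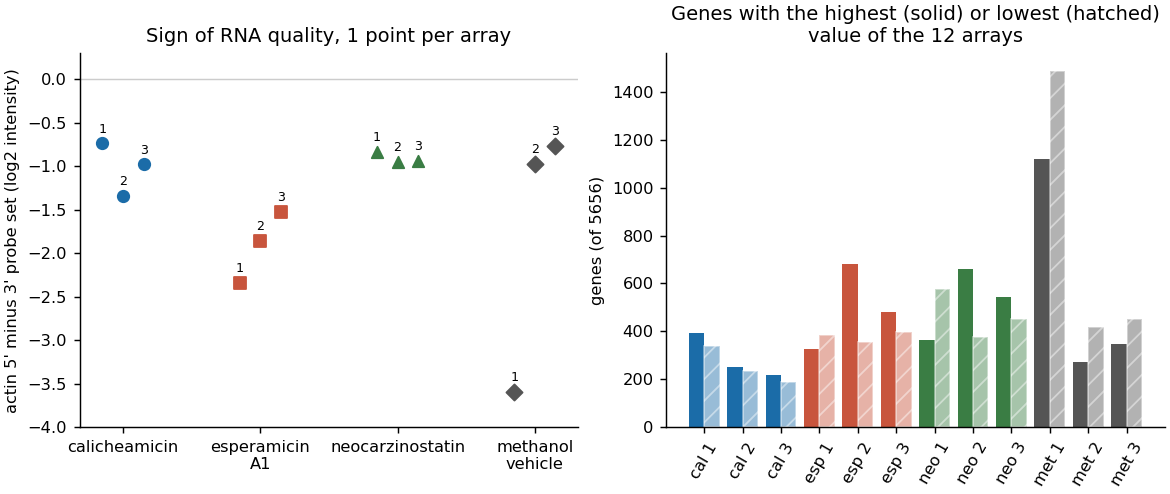
The left panel plots the 5′ minus 3′ difference of the actin control probe sets (log2 intensity) for each array, with the replicate number above each point, and the right panel counts for each array the genes in which it had the highest (solid) or lowest (hatched) value of the 12. Methanol vehicle replicate 1 lies at −3.59 and holds the lowest value in 1487 genes, and the esperamicin A1 arrays lie between −2.34 and −1.53.

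No gene passed the test for the mean of the 3 enediynes against methanol. With limma, 0 of 5656 genes (0%) combined a 1.5-fold difference with a p of at most 0.10 after Benjamini-Hochberg adjustment, and the smallest adjusted p was 0.817. At an unadjusted p under 0.05 there were 324 genes, 254 higher with the enediynes (4.49%) and 70 lower (1.24%). A local pooled error test, written after the published description of the test that the study used, called 6 genes (0.106%). It took the enediyne arrays together and used no filter for absent transcripts. The study tested each compound on its own after such a filter, so its counts are not comparable. The differences were small: the median absolute log2 difference was 0.12, 47 genes differed 1.5-fold or more (36 higher and 11 lower) and 3 differed 2-fold or more. The median standard error was 0.16, and 95% intervals stayed within 2-fold for 5508 genes (97.4%) and within 1.5-fold for 4041 (71.5%). The count of called genes was again 0 without methanol vehicle replicate 1, with 260 genes at an unadjusted p under 0.05 (153 higher, 2.71%, and 107 lower, 1.89%) and a smallest adjusted p of 0.164.

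*CIP1*, whose product inhibits the cell cycle kinase Cdc28, had the smallest p of all genes. Its intensities were 309, 185 and 187 with calicheamicin, 214, 159 and 157 with esperamicin A1 and 364, 311 and 313 with neocarzinostatin, against 75.9, 134 and 158 with methanol. All enediyne arrays but 1 lay above the vehicle arrays, and esperamicin A1 replicate 3 lay just below the highest of them. The mean was 244 ± 79.2 (SD, n = 9) with the enediynes and 122.7 ± 42.2 (SD, n = 3) with methanol, a log2 difference of 0.99 (standard error 0.24, unadjusted p = 0.00069, adjusted p = 0.817 from limma). The difference was 0.68 when methanol vehicle replicate 1, the lowest of the 12 arrays for this gene, was left out (standard error 0.25, unadjusted p = 0.0138). Over the alternatives fitted with limma it ranged between 0.68 and 1.21, with adjusted p-values of 0.212 and above.

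*NOP56*, which encodes a core protein of the box C/D small nucleolar ribonucleoproteins that modify ribosomal RNA, had the largest positive difference. Its intensities were 87.1, 78.2 and 105 with calicheamicin, 44.3, 108 and 61.3 with esperamicin A1 and 48.5, 99.3 and 92.1 with neocarzinostatin, against 24.4, 97.9 and 21.4 with methanol. Methanol vehicle replicate 2 thus lay within the enediyne range and the other vehicle arrays below it. The log2 difference was 1.05 (standard error 0.36, unadjusted p = 0.0095, adjusted p = 0.817 from limma), 0.75 without methanol vehicle replicate 1 and 1.75 without replicate 2, where the gene passed the test (adjusted p = 0.0433 from limma; 0.0433 to 1 over the alternatives). *SEC10*, a subunit of the exocyst that tethers secretory vesicles and a gene named after its values were seen, had the same layout: 8.12 to 19.1 (median 13.2) with the enediynes and 5.82, 12.2 and 3.49 with methanol. Its log2 difference was 0.99, and without methanol vehicle replicate 2 it was 1.47 and passed (adjusted p = 0.0433 from limma, 0.0433 to 1 over the alternatives).

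*FRT2*, which encodes a protein of the endoplasmic reticulum membrane, had the largest negative difference and was named after its values were seen. It lay between 16.7 and 36.5 (median 26.8) in the enediyne arrays and at 62.5, 243 and 24.1 in the vehicle arrays, so the enediyne values were close together, with 1 vehicle array inside their range and the others above it. The log2 difference was −1.44 (standard error 0.42, unadjusted p = 0.0031, adjusted p = 0.817 from limma) and −1.53 without methanol vehicle replicate 1. Without replicate 3 it was −2.22 and passed (adjusted p = 0.0366, 0.0366 to 1 over the alternatives).

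The 9 enediyne arrays lay wholly above the 3 vehicle arrays in 29 genes (0.513%) and wholly below them in 13 (0.23%). There are 220 ways to choose 9 of the 12 arrays, and in exchangeable arrays each choice is equally likely to be the highest or the lowest. About 1 gene in 220 would therefore separate in each direction without any effect of the compounds. The share found was close to that for the higher genes and below it for the lower ones. The counts were not tested against that share, so the genes below are described and not called a shared response. After each array was centred on its median, the counts were 19 and 16. Only 2 of the 42 genes also differed 1.5-fold or more, *KEI1* and *DXO1*, and none of the 42 passed the test. The largest positive differences were in *ATG19* (0.50 on the log2 scale), *MSO1* (0.46), *MSN1* (0.45), *DAL82* (0.40), *CVM1* (0.39), *YLR031W* (0.39), *ATG34* (0.37), *ALG11* (0.37), *YMR196W* (0.37) and *BIO3* (0.36). In the same order they were 0.40, 0.40, 0.40, 0.29, 0.45, 0.43, 0.38, 0.24, 0.24 and 0.31 without methanol vehicle replicate 1.

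*ATG19* and *ATG34* encode related receptors that load vacuolar hydrolases into autophagic vesicles, and both were in this group. *ATG19* lay between 33.1 and 53.8 (median 41.9) with the enediynes and at 24.9, 28.7 and 32.7 with methanol. *ATG34* lay between 56.4 and 78.5 (median 64.5), against 50.2, 46.9 and 51.9. The gap between the groups was thus smaller than the range within the enediynes for each of them. *MSO1*, whose product acts with Sec1 in the fusion of secretory vesicles, lay between 50 and 77.2 (median 57.9) with the enediynes and at 40.2, 45.6 and 45.3 with methanol, and its difference was 0.46 (standard error 0.12, unadjusted p = 0.00123, adjusted p = 0.817 from limma). *MSN1*, a transcriptional activator, lay between 14.6 and 21.0 (median 17.7) against 12.1, 14.5 and 12.3, intensities near the array medians. *CVM1*, whose product is found at contacts between mitochondria and vacuole, lay between 24.4 and 31.0 (median 26.1) against 22.1, 19.6 and 19.7. Of the others, *ALG11* encodes a mannosyltransferase of protein glycosylation, *DAL82* a regulator of allantoin use and *BIO3* an enzyme of biotin synthesis.

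Among the 13 genes that lay wholly below the vehicle, the largest negative differences were in *KEI1* (−0.62), *DXO1* (−0.59), *RPL28* (−0.54), *SCS2* (−0.44), *YCR087C-A* (−0.42), *TIM22* (−0.36), *VAS1* (−0.36), *RPS9B* (−0.35), *SVF1* (−0.34) and *IPI1* (−0.33). In the same order they were −0.73, −0.57, −0.41, −0.41, −0.39, −0.43, −0.40, −0.18, −0.24 and −0.27 without methanol vehicle replicate 1. *RPL28* encodes a component of the 60S subunit. Its intensities were 1007, 1382 and 1435 with calicheamicin, 1280, 1506 and 1735 with esperamicin A1 and 1343, 1249 and 1344 with neocarzinostatin, against 2335, 1753 and 1836 with methanol. The highest enediyne array, esperamicin A1 replicate 3, came close to the lowest vehicle array. The mean was 1364 ± 198 (SD, n = 9) with the enediynes and 1974 ± 315 (SD, n = 3) with methanol (log2 difference −0.54, standard error 0.14, unadjusted p = 0.00113, adjusted p = 0.817 from limma), and the difference without methanol vehicle replicate 1 was −0.41.

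*DXO1*, which encodes a 5′ exonuclease and decapping enzyme of RNA quality control, had 9.98, 10.04 and 13.2 with calicheamicin, 11.99, 11.7 and 12.3 with esperamicin A1 and 7.30, 5.66 and 8.11 with neocarzinostatin, against 15.2, 14.9 and 13.8 with methanol. The neocarzinostatin arrays were the lowest and the vehicle arrays were close together (log2 difference −0.59, standard error 0.17, unadjusted p = 0.00272, adjusted p = 0.817 from limma, and −0.57 without replicate 1). *KEI1*, a subunit of the synthase of inositol phosphorylceramide in the Golgi, lay between 22.6 and 39.9 (median 34.8) against 42.8, 48.5 and 59.4. *SCS2*, a protein that anchors the endoplasmic reticulum to the plasma membrane, lay between 273 and 444 (median 413) against 529, 532 and 477. *VAS1* encodes the valyl-tRNA synthetase, *TIM22* the channel of a translocase of the mitochondrial inner membrane, *RPS9B* a protein of the small ribosomal subunit with a close paralogue that could share its probes, and *IPI1* a factor of large subunit maturation. For these 4 genes the highest enediyne array was below the lowest vehicle array by less than the range of the vehicle arrays.

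**Figure D2:**
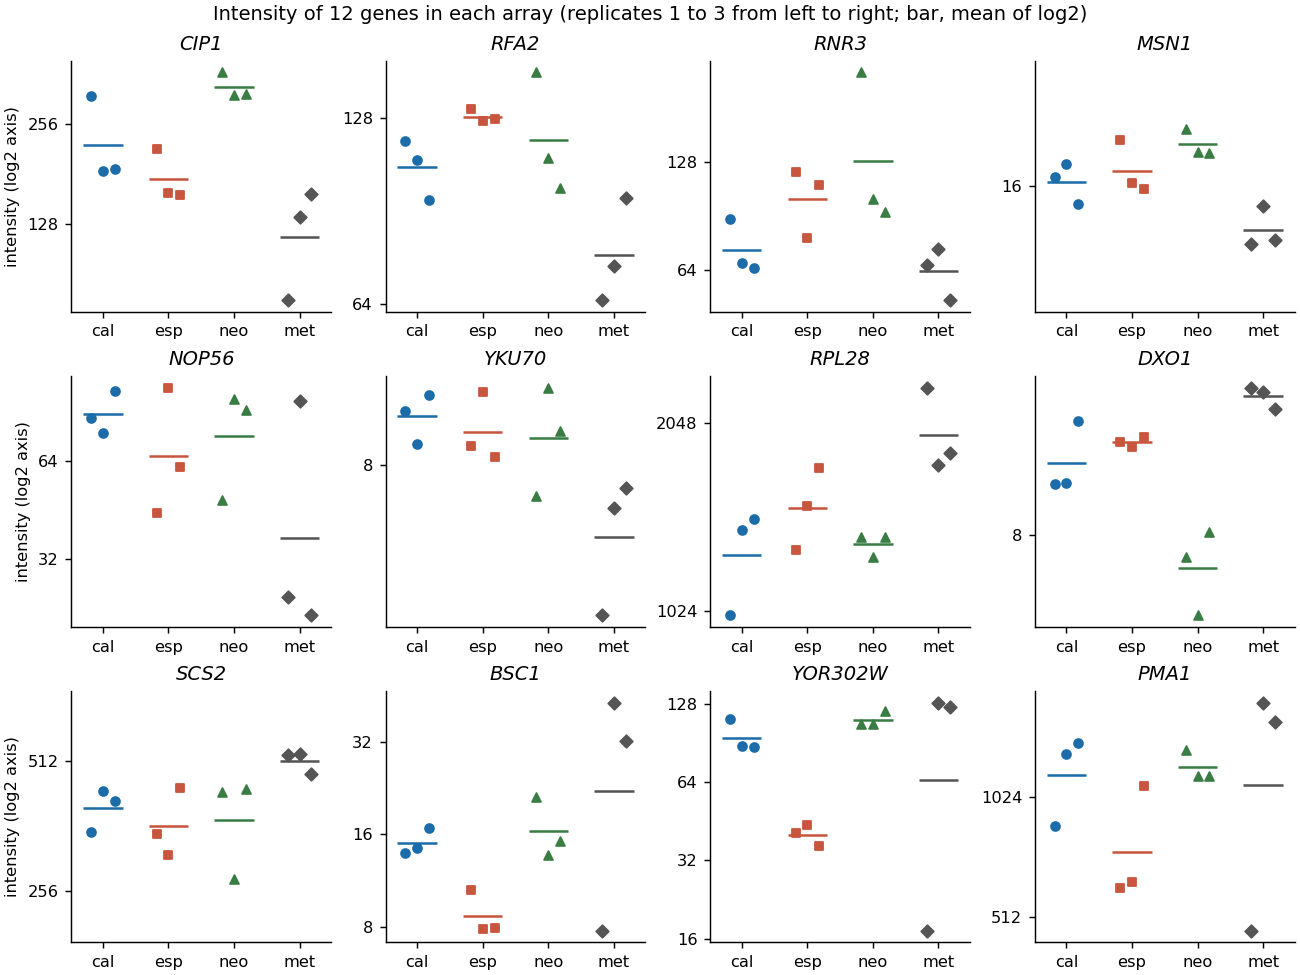
Intensity (log2 axis) of 12 genes in each of the 12 arrays, with calicheamicin (cal), esperamicin A1 (esp) and neocarzinostatin (neo) left of methanol vehicle (met), replicates 1 to 3 from left to right within a group and a bar at the mean of the log2 values. *RPL28*, *DXO1* and *SCS2* lie below and *MSN1* above all vehicle arrays, whereas in *YOR302W* and *PMA1* methanol vehicle replicate 1 lies below every enediyne array and the other vehicle arrays above.

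The DNA damage response was examined first through its target genes. Of 9 genes of the DNA damage signature that were listed, 6 were measured: 3 had a mean difference above 0 and 3 below, the median was 0.01 (0.04 over all genes), none had an unadjusted p under 0.05 and none passed the test. The genes were *RAD54* (0.25), which encodes a motor protein of homologous recombination, *RNR2* (0.22) and *RNR4* (−0.27), the small subunits of ribonucleotide reductase, *DUN1* (0.09), the kinase at the end of the checkpoint cascade, *FMP52* (−0.20) and *ALG14* (−0.06). The median without methanol vehicle replicate 1 was 0.11, with *RAD54* at 0.59 (unadjusted p = 0.00509) and *ALG14* at 0.20, on the other side of 0, and *RNR4* at −0.33 (unadjusted p = 0.0482). The study examined the same signature in these samples, so the list is not independent of them.

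*RNR3*, the damage-inducible large subunit of ribonucleotide reductase, had the largest difference of the 9 reductase genes and their regulators, of which 7 were above 0 (median 0.16, and 0.06 without methanol vehicle replicate 1). Its intensities were 88.5, 66.9 and 64.9 with calicheamicin, 120, 78.6 and 110 with esperamicin A1 and 227, 101 and 92.9 with neocarzinostatin, against 66.2, 73.2 and 52.7 with methanol. Of the enediyne arrays 7 lay above all vehicle arrays, and calicheamicin replicates 2 and 3 lay within the vehicle range. The mean was 106 ± 49.2 (SD, n = 9) with the enediynes and 64.0 ± 10.4 (SD, n = 3) with methanol, a log2 difference of 0.63 (standard error 0.23, unadjusted p = 0.0146, adjusted p = 0.817 from limma) and 0.66 without methanol vehicle replicate 1. Over the alternatives fitted with limma it lay between 0.49 and 0.73, with adjusted p-values of 0.331 and above.

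The other members of this group showed no common direction that exceeded the spread. *RNR2* lay between 804 and 1128 (median 956) with the enediynes and at 764, 822 and 863 with methanol (0.22, 95% interval −0.03 to 0.46). *RNR4* lay between 311 and 562 (median 462) against 485, 540 and 547 (−0.27, −0.55 to 0.01), the opposite sign for the partner of *RNR2* in the enzyme. *HUG1*, which encodes an inhibitor of the small subunits and is induced through Mec1, lay at 120 to 157 in 8 enediyne arrays and at 251 in neocarzinostatin replicate 1, against 173, 129 and 135 with methanol (−0.04, −0.46 to 0.37). *DUN1* lay between 20.0 and 28.3 (median 23.4) against 20.7, 22 and 23.3 (0.09, −0.15 to 0.34). With all vehicle arrays the intervals of *RNR2*, *RNR4*, *HUG1* and *DUN1* lay inside a 1.5-fold change. Without methanol vehicle replicate 1 the interval of *RNR4* was −0.65 to −0.0030, which reaches beyond a 1.5-fold decrease. *RNR1*, the main large subunit, had an interval of −0.59 to 1.07 around 0.24, and the regulators *SML1* (0.34), *WTM1* (0.16), *RFX1* (0.10) and *DIF1* (0.08) had values whose unadjusted p was above 0.05. The sign changed without methanol vehicle replicate 1 for *HUG1* (0.09), *SML1* (−0.06) and *WTM1* (−0.07), and *RNR1* was then at 0.0063.

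Repair and replication genes were centred near 0. The list medians were 0.07 for 15 checkpoint sensors and kinases, 0.06 for 19 genes of homologous recombination, −0.07 for 6 genes of non-homologous end joining, 0.06 for 15 genes of base excision and end processing, −0.02 for 13 genes of nucleotide excision repair, 0.03 for 12 genes of post-replication repair and 0.04 for 34 genes of the replication machinery. The same medians without methanol vehicle replicate 1 were 0.03, 0.05, 0.06, 0.05, −0.0080, 0.03 and 0.09, so that for end joining had the other sign. At an unadjusted p under 0.05 the 7 lists together named *SGS1* (0.36), a helicase of recombination, *YKU70* (0.53), a subunit of the Ku end-binding dimer, *NTG2* (0.38), a DNA glycosylase, *ELG1* (0.38), which unloads the sliding clamp, and *RFA2* (0.61) as higher, and *RAD1* (−0.42), an excision nuclease subunit that stands in 2 lists, and *PSF1* (−0.47), a subunit of the replicative helicase, as lower. Each list held at most 1 such gene in each direction, and over all genes 4.49% were higher and 1.24% lower at that p. No list was tested against these shares. The difference of *RAD1* rested on methanol vehicle replicate 1, at 13.2 beside 8.45 and 6.37 in the other vehicle arrays. It was −0.14 without that array (unadjusted p = 0.37 from limma), while that of *ELG1* was 0.22.

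*RFA2*, which encodes the middle subunit of the single-strand DNA binding protein RPA, had 118, 110 and 94.5 with calicheamicin, 132, 127 and 128 with esperamicin A1 and 152, 110 and 98.9 with neocarzinostatin, against 65.0, 73.8 and 95.1 with methanol. Only calicheamicin replicate 3 fell within the vehicle range, just below methanol vehicle replicate 3. The mean was 119 ± 17.9 (SD, n = 9) with the enediynes and 78.0 ± 15.5 (SD, n = 3) with methanol, a log2 difference of 0.61 (standard error 0.16, unadjusted p = 0.00119, adjusted p = 0.817 from limma) and 0.49 without methanol vehicle replicate 1. *YKU70* lay between 7.19 and 10.4 (median 8.97) against 4.79, 6.91 and 7.38, below the array medians, and its difference without methanol vehicle replicate 1 was 0.34. *PSF1* lay between 8.47 and 16.4 (median 12.7) against 19.4, 14.6 and 17.98, also with groups that overlapped.

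Cell cycle genes gave single differences and no shift shared by the lists. All 4 genes for inhibitors of Cdc28 were above 0, namely *CIP1* (0.99), *SIC1* (0.25), *FAR1* (0.25) and *SWE1* (0.08), and only *CIP1* had an unadjusted p under 0.05 (*FAR1* and *SWE1* were named after their values were seen). Without methanol vehicle replicate 1 the values of the other 3 were 0.12, −0.05 and 0.01. The median over 17 genes of the G1/S transition was 0.21, and −0.06 without methanol vehicle replicate 1. *TOS4* (0.50), a chromatin-associated factor, and *SWI6* (0.39), a subunit of the G1/S transcription factors, had the smallest p of these genes, and their differences without that array were 0.21 and 0.35. *SWI6* lay between 6.47 and 9.70 (median 7.96) against 5.90, 6.50 and 6.13, and only esperamicin A1 replicate 3 reached into the vehicle range. The medians over 20 genes of G2/M and over 12 genes of daughter cell separation were both 0.03, and −0.06 and −0.08 without that array.

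The general stress genes controlled by Msn2 and Msn4 were above 0 in 25 of 31 measured members, with a median of 0.16 against 0.04 over all genes, of which 3317 were above 0. Without methanol vehicle replicate 1 the count was again 25 of 31 and the median 0.21 (0.03 over all genes). In single arrays the median of this list, taken relative to the mean of methanol vehicle replicates 2 and 3, lay between −0.05 and 0.48 with the enediynes and at 0.13, −0.19 and 0.19 in vehicle replicates 1, 2 and 3, so 6 enediyne arrays lay above all vehicle arrays and 3 lay among them. *DDR2*, a stress gene of unknown biochemical function, lay between 451 and 776 (median 674) with the enediynes and at 242, 407 and 636 with methanol (log2 difference 0.62, unadjusted p = 0.031, adjusted p = 0.817 from limma), and its difference without replicate 1 was 0.26 (unadjusted p = 0.338). *MSN2* itself, the transcription factor gene, lay between 38.1 and 74.1 (median 52.7) against 21.2, 56.2 and 40.7 (0.54), and its difference was 0.14 without methanol vehicle replicate 1.

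Chaperone genes were above 0 in 17 of 21 members (median 0.07), and in 20 of 21 without methanol vehicle replicate 1 (median 0.22). Over all 5656 genes 3317 were above 0, and 3216 without that array. Relative to methanol vehicle replicates 2 and 3 the list median was above 0 in all 9 enediyne arrays (0.0037 to 0.43), and at 0.40 in methanol vehicle replicate 1. The median of all genes on this scale was above 0 in 8 of the 9 enediyne arrays (−0.011 to 0.073). *SIS1*, an Hsp40 cochaperone, lay between 95.05 and 186 (median 145) with the enediynes and at 109, 80.1 and 139 with methanol (0.38, unadjusted p = 0.0698). *KAR2*, the Hsp70 of the endoplasmic reticulum, lay between 516 and 848 (median 700) against 522, 566 and 631 (0.28, unadjusted p = 0.0488, adjusted p = 0.817 from limma, and 0.22 without replicate 1). Among oxidative stress and thiol genes 18 of 30 were above 0 with a median of 0.07 (25 of 30 and 0.08 without replicate 1), and the median over 16 genes of alcohol, formaldehyde and formate metabolism was −0.0055 (0.05).

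Genes of the ribosome had medians just below 0. Of 47 measured proteins of the large subunit 33 were below 0 and 14 above, with a median of −0.06, and at an unadjusted p under 0.05 there were 6 lower and 2 higher (1.24% and 4.49% over all genes). The figures without methanol vehicle replicate 1 were 32 below and 15 above, a median of −0.07, and 7 lower and 0 higher at that p (1.89% and 2.71% over all genes). Of 33 proteins of the small subunit 21 were below 0 and 12 above, with a median of −0.06 and 2 lower at an unadjusted p under 0.05, against 18 below and 15 above, a median of −0.03 and 0 lower when that array was left out. *RPL24A*, another protein of the large subunit, lay between 1450 and 2060 (median 1615) with the enediynes and at 2487, 2001 and 2106 with methanol (log2 difference −0.40, unadjusted p = 0.00387, adjusted p = 0.817 from limma, and −0.30 without replicate 1). Ribosomal protein genes of yeast are mostly present as near-identical pairs, and 47 of 81 listed genes of the large subunit and 33 of 56 of the small subunit were measured.

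For the factors that assemble ribosomes the sign depended on the vehicle arrays. Of 61 members 28 were above 0 and 33 below with all vehicle arrays (median −0.02), against 7 above and 54 below without methanol vehicle replicate 1 (median −0.19). In single arrays the list median relative to vehicle replicates 2 and 3 was between −0.66 and 0.15 with the enediynes, below 0 in 7 of 9, and −0.55 in methanol vehicle replicate 1. *NUG1*, a GTPase of large subunit export, lay between 78.3 and 143 (median 94.2) with the enediynes and at 146, 139 and 122 with methanol (−0.42, unadjusted p = 0.0271, adjusted p = 0.817 from limma, and −0.37 without replicate 1). The 23 genes of RNA polymerases I and III likewise had a median of 0.09 with all vehicle arrays and −0.11 without methanol vehicle replicate 1.

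**Figure D3:**
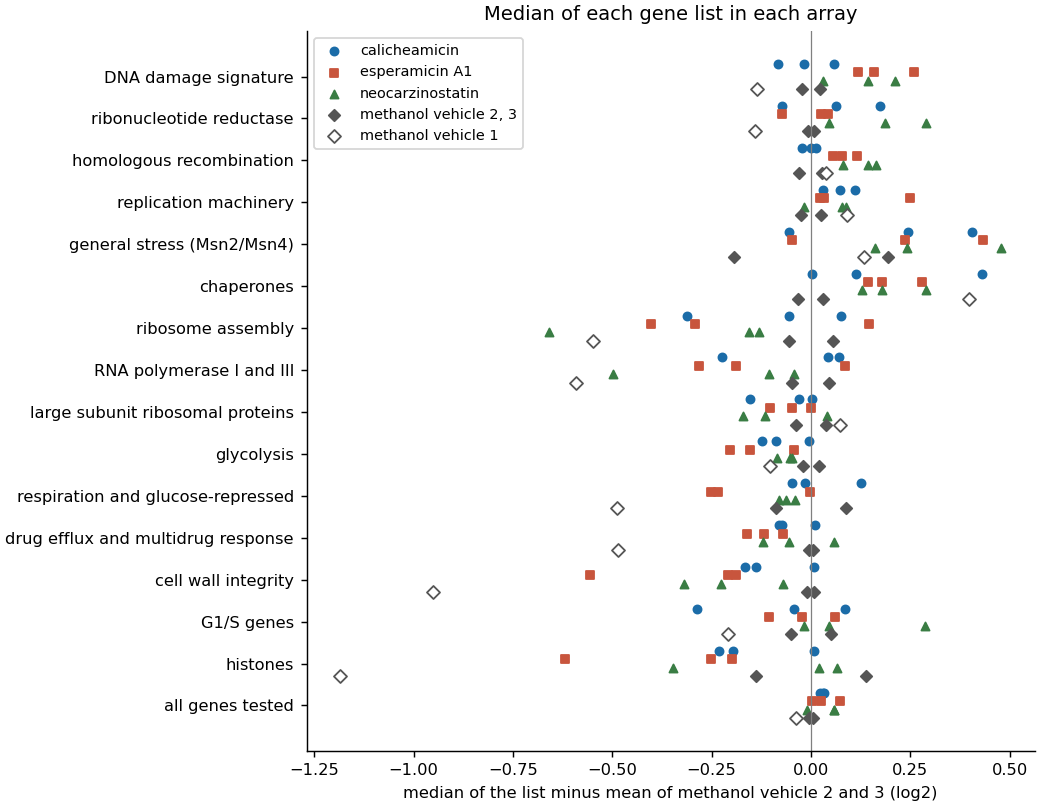
Median over the measured members of 15 gene lists and of all genes in each array, after subtracting for each gene the mean of methanol vehicle replicates 2 and 3 (log2). Filled symbols of the enediynes lie above 0 in all 9 arrays for chaperones, in 8 of 9 for all genes, and below 0 in all 9 for glycolysis. The open diamond of methanol vehicle replicate 1 lies at −0.95 for cell wall integrity and −1.19 for histones.

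Of the metabolic lists, glycolysis had 14 of 20 members below 0 both with and without methanol vehicle replicate 1, with medians of −0.09 and −0.10. Over all 5656 genes 2339 were below 0, and 2440 without that array. Its median relative to vehicle replicates 2 and 3 was below 0 in all 9 enediyne arrays (−0.20 to −0.0037) and −0.10 in methanol vehicle replicate 1. *HXT3*, a low-affinity glucose transporter, lay between 892 and 1277 (median 1092) with the enediynes and at 1310, 1326 and 1369 with methanol (log2 difference −0.31, standard error 0.17, unadjusted p = 0.0816). *PDC1*, the major pyruvate decarboxylase, lay between 3622 and 4122 (median 3951) against 4420, 4391 and 4279 (−0.16, standard error 0.09, unadjusted p = 0.106). The groups did not overlap in either gene, and the gap between them was smaller than the range of the enediyne arrays. These were the only 2 of the 20 members wholly below the vehicle, beside 0.23% of all genes. The list was not tested against that share. The median over 42 genes of amino acid biosynthesis was −0.06 (−0.04 without replicate 1) and that over 25 genes of methionine and sulfur metabolism −0.08 (−0.07). The iron regulon had 0.11 over 20 genes (0.03). The sign changed for 32 glucose-repressed and respiration genes (0.10 with all vehicle arrays, and −0.04 without replicate 1, where 14 were above 0 and 18 below) and for 17 genes of the phosphate response (0.0059 and −0.047).

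*HAP1*, the gene of a transcription factor that responds to heme, and *ECM22*, a regulator of sterol synthesis, had the smallest p among 28 genes of heme, oxygen and ergosterol metabolism (median 0.05, and 0.08 without methanol vehicle replicate 1). *HAP1* lay between 24.3 and 88.6 (median 61.3) with the enediynes and at 128, 59.3 and 108 with methanol (log2 difference −0.82, standard error 0.27, unadjusted p = 0.00789, adjusted p = 0.817 from limma), and −0.59 without methanol vehicle replicate 1. Its 3 probe sets did not give 1 direction: the brightest had −0.82, another −0.67 and the third 0.46. *ECM22* lay between 12.5 and 23.01 (median 19.9) against 12.4, 18.1 and 5.96 (0.73), so methanol vehicle replicate 3 lay well below all enediyne arrays, replicate 1 barely below them and replicate 2 among them.

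Leaving out methanol vehicle replicate 1 changed the sign of the mean difference in 1925 of 5656 genes and moved it by over 0.5 on the log2 scale in 114. Of the 47 genes that differed 1.5-fold or more with all vehicle arrays, 16 also did so without it, where the total was 51 (24 higher and 27 lower). The number of genes whose enediyne arrays lay wholly beyond vehicle replicates 2 and 3 was 221, of which 113 were higher (2%) and 108 lower (1.91%), together 3.91%, and 20 of the 221 differed 1.5-fold or more. With replicate 1 left out fewer arrays have to be separated, so this count can rise without any larger difference. *HHO1*, which encodes the linker histone, is an example of a gene whose sign rests on that array: it lay between 26.8 and 38.6 (median 34.6) with the enediynes and at 7.89, 31.2 and 44.1 with methanol, a difference of 0.58 with all vehicle arrays and −0.17 without replicate 1.

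**Figure D4:**
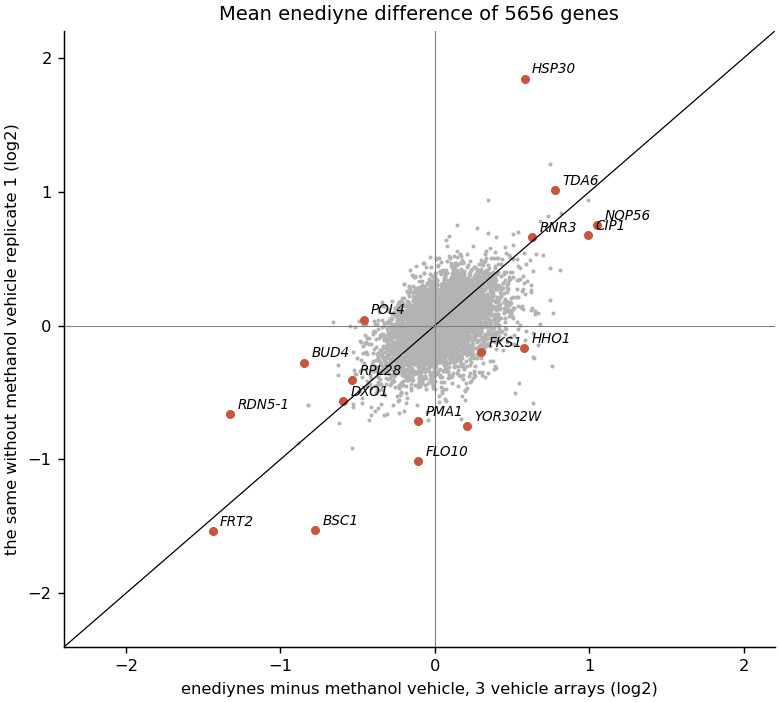
Mean log2 difference of the enediynes from methanol vehicle for 5656 genes, with all 3 vehicle arrays (horizontal axis) and without methanol vehicle replicate 1 (vertical axis), with the diagonal drawn and 17 genes named. *RNR3*, *DXO1* and *FRT2* lie near the diagonal, and *HHO1*, *FKS1* and *YOR302W* lie in the quadrant where the sign differs.

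Among the 108 genes whose enediyne arrays lay wholly below vehicle replicates 2 and 3, the largest negative differences were in *BSC1* (−1.53), *FLO10* (−1.01), *YOR302W* (−0.75), *KEI1* (−0.73), *PMA1* (−0.72) and *MET6* (−0.71). *BSC1*, a relative of the flocculin genes, had 13.9, 14.5 and 16.8 with calicheamicin, 10.5, 7.84 and 7.96 with esperamicin A1 and 21.2, 13.7 and 15.2 with neocarzinostatin, against 7.78, 42.9 and 32.2 with methanol. All 9 enediyne arrays thus lay above vehicle replicate 1 and below the other vehicle arrays. The difference without replicate 1 had a standard error of 0.34 and an adjusted p of 0.817 (limma, 17 arrays), and the gene passed when the fit held only the remaining 11 enediyne and vehicle arrays (adjusted p = 0.00683 from limma, beside 0.00449 with the replicate block, 0.00285 with the block within family and 0.0321 with array quality weights). *FLO10*, a flocculin gene, lay between 13.1 and 54.8 (median 33.9) with the enediynes and at 9.31, 58.0 and 64.7 with methanol.

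*YOR302W*, the upstream reading frame that encodes the arginine attenuator peptide of *CPA1*, had the smallest adjusted p without methanol vehicle replicate 1 (0.164 from limma). It then passed with the block within family (adjusted p = 0.0602), with array quality weights (0.0205), after cyclic loess (0.0697) and with calicheamicin replicate 1 also left out (0.0762), all from limma. Its intensities were 112, 88.1 and 86.9 with calicheamicin, 40.9, 43.8 and 36.3 with esperamicin A1 and 108, 107 and 120 with neocarzinostatin, against 17.2, 129 and 124 with methanol. The array with an actin 5′ minus 3′ difference of −3.59 was the lowest, the 3 esperamicin A1 arrays came next and all others lay at 86.9 or above. Within esperamicin A1, replicate 3, with the highest actin difference of the 3 (−1.53), had the lowest value. With the actin difference as a covariate and all vehicle arrays, the log2 difference was −0.27, and it was 0.21 without the covariate. Whether the actin difference plays a part was not tested. *PMA1*, the proton pump of the plasma membrane, had 867, 1314 and 1399 for calicheamicin, 606, 629 and 1096 for esperamicin A1, 1344, 1158 and 1161 for neocarzinostatin and 474, 1772 and 1587 for methanol. Methanol vehicle replicate 1 was again the lowest array, and calicheamicin replicate 1 lay below esperamicin A1 replicate 3. *MET6*, the methionine synthase, lay between 312 and 709 (median 578) with the enediynes and at 474, 902 and 800 with methanol.

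Among the 113 genes whose enediyne arrays lay wholly above vehicle replicates 2 and 3, the largest differences were in *TDA6* (1.01), *TPO2* (0.73), *OSW2* (0.70), *LAM5* (0.56), *NNR2* (0.54) and *MEO1* (0.53). *TDA6*, a gene of unknown function, lay between 10.4 and 24.3 (median 13.3) with the enediynes and at 11.7, 6.49 and 7.95 with methanol. *TPO2*, a polyamine exporter, lay between 396 and 601 (median 476) against 767, 370 and 238, so methanol vehicle replicate 1 was the highest of the 12 arrays and the other vehicle arrays were the lowest. *LAM5*, a sterol transfer protein, lay between 19.1 and 31.7 (median 23.99) against 41.1, 17.2 and 17.3, and had the smallest p of the 6 without replicate 1 (unadjusted p = 0.000722, adjusted p = 0.817 from limma). *HSP30*, a heat shock gene of the plasma membrane named after its values were seen, had the largest positive difference without replicate 1 (1.84), but its values ranged between 11.8 and 135 (median 38.4) with the enediynes and were 158, 8.49 and 15.4 with methanol.

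The cell wall genes as a list also depended on the vehicle arrays. Of 19 measured members 13 were above 0 with all vehicle arrays (median 0.15), and 0 of 19 without methanol vehicle replicate 1 (median −0.22). The list median relative to vehicle replicates 2 and 3 was below 0 in 8 of 9 enediyne arrays (−0.56 to 0.0084) and was −0.95 in methanol vehicle replicate 1. *SLT2*, the kinase of the cell wall integrity pathway, lay between 206 and 254 (median 231) with the enediynes and at 252, 324 and 250 with methanol (log2 difference −0.25, and −0.30 without replicate 1). The 17 genes of drug efflux had medians of 0.13 with all vehicle arrays and −0.11 without replicate 1, and the 4 measured histone genes had 0.27 and −0.21.

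When all 9275 probe sets were tested in place of 1 per gene, 0 were called with all vehicle arrays, and 25 (0.27%) were called without methanol vehicle replicate 1, all of them lower with the enediynes. Of these, 19 match 1 gene, in 14 genes: *PDR5* (4 probe sets), *FKS1* and *RPA190* (2 each), and *ECM33*, *FAS2*, *GCN1*, *GLC7*, *GSC2*, *KIN2*, *SAM3*, *TEF4*, *VIP1*, *YOR1* and *YOR302W*. All but that of *YOR302W* were dimmer probe sets of genes whose brightest probe set was not called. The choice of these genes followed from their values.

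For *PDR5*, the main multidrug efflux pump, 4 of 7 probe sets were called with differences of −1.19 to −1.06, whereas the brightest, with a mean intensity of 1142, had −0.08. One of the 4 had 156, 132 and 125 with calicheamicin, 45.6, 70.6 and 33.9 with esperamicin A1 and 98.7, 128 and 133 with neocarzinostatin, against 54.8, 221 and 198 with methanol. The called probe set of *ECM33*, a GPI-anchored cell wall protein, had 886, 730 and 1043, 172, 291 and 270, and 786, 735 and 778 with the same compounds in this order, against 89.0, 1003 and 1368 with methanol, a difference of −1.11 (standard error 0.19, adjusted p = 0.0324 from limma), while the brighter probe set of this gene had −0.11. For *TEF4*, a subunit of translation elongation factor 1B, they were 368, 223 and 322, then 73.0, 102 and 92.0, then 190, 248 and 223, against 39.3, 370 and 425, a difference of −1.15 (adjusted p = 0.0302 from limma) beside −0.18 for its brighter probe set. In each of them the 3 esperamicin A1 arrays and methanol vehicle replicate 1 were the 4 lowest of the 12. Not all called probe sets had this layout. In the one shared by *RPS16A* and *RPS16B*, methanol vehicle replicate 1 (165) lay above every enediyne array. In that of *KIN2* the same vehicle array (3.32) lay above the esperamicin A1 arrays.

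*FKS1*, the catalytic subunit of β-1,3-glucan synthase, had called probe sets with −2.02 and −0.99 and a brightest one with −0.20, and *RPA190*, the largest subunit of RNA polymerase I, had −1.35 and −0.73 and a brightest one with −0.0015. The median difference of the 25 probe sets was −0.78 for the calicheamicin arrays, −1.71 for esperamicin A1 and −0.87 for neocarzinostatin, and esperamicin A1 was the lowest of the 3 in 24. The count was 0 without the esperamicin A1 arrays, 29 without calicheamicin and 31 without neocarzinostatin, and 2 with the actin difference as a covariate. The arrays with the lowest actin differences after methanol vehicle replicate 1 are those of esperamicin A1, and within this design a low actin difference and esperamicin A1 cannot be told apart.

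The compounds are given side by side with limma's standard error, since their doses in nM differ and all 3 differences rest on the same vehicle arrays. For *CIP1* the log2 difference from methanol was 0.91 after calicheamicin, 0.58 after esperamicin A1 and 1.49 after neocarzinostatin (standard error 0.29 each). For *RNR3* the values were 0.20, 0.67 and 1.02 (0.28 each), for *RFA2* 0.47, 0.74 and 0.62 (0.19 each) and for *YKU70* 0.59, 0.52 and 0.49 (0.19 each), in the same order. All 3 compounds were on the same side of methanol in these 4 genes, with the smallest value of *RNR3* within its standard error of 0. These genes were named for a small p of the class in their lists, a choice that favours a shared side. *NOP56* had 1.27, 0.84 and 1.04 (0.44 each). Of the negative differences, *RPL28* had −0.64, −0.39 and −0.58 (0.17 each), *DXO1* −0.42, −0.29 and −1.08 (0.21 each), *HAP1* −0.63, −0.45 and −1.38 (0.33 each) and *BSC1* −0.56, −1.34 and −0.43 (0.50 each). Of the genes in this paragraph, only *RNR4* had a compound at 0 and the others on 1 side: −0.26, −0.58 and 0.02 (0.16 each). Among genes named earlier, some had compounds on both sides of methanol, such as *YOR302W* (0.55, −0.69 and 0.77) and *PMA1* (0.09, −0.56 and 0.15).

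**Figure D5:**
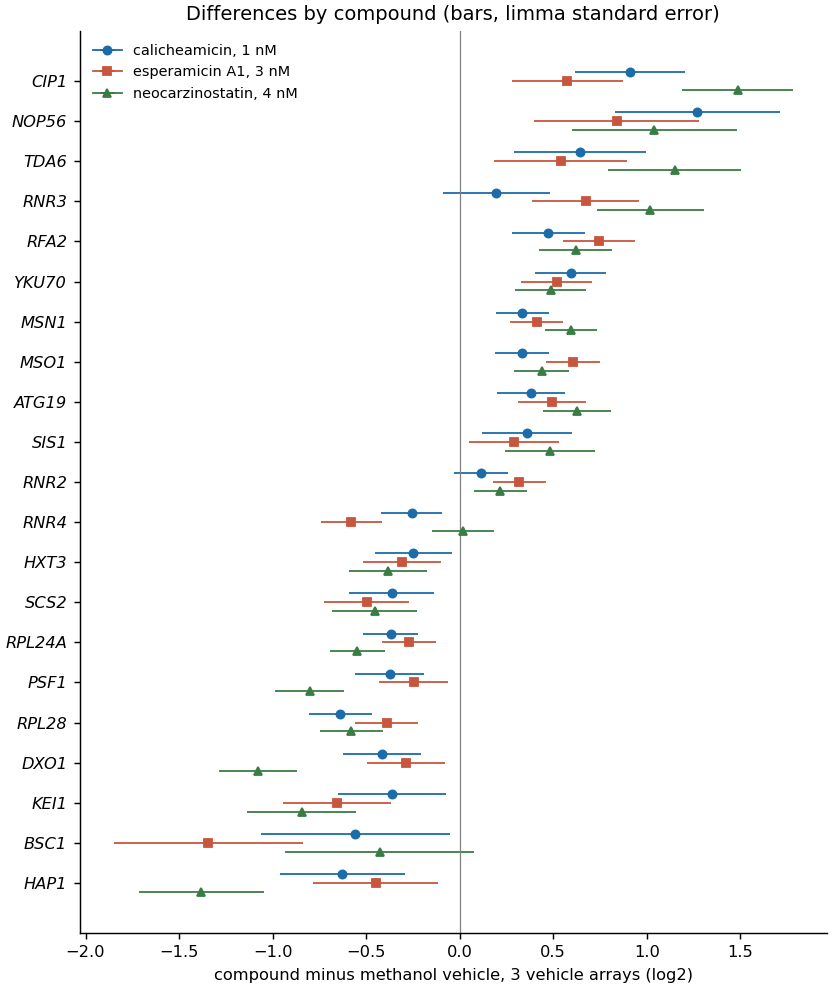
Log2 difference from methanol vehicle (horizontal axis, 3 vehicle arrays) of 21 genes with calicheamicin, esperamicin A1 and neocarzinostatin, with bars of 1 standard error from limma. The 3 compounds lie on the same side of 0 in all genes shown but *RNR4*, where neocarzinostatin is at 0.02, and their values share the 3 vehicle arrays. The genes were chosen from these same values. Where all enediyne arrays lie beyond the vehicle arrays, as in *RPL28*, *DXO1* and *MSN1*, the shared side follows from that choice.

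The local pooled error test, which compares medians, called 6 genes: *NOP56* (1.84), *HSP30* (1.32) and *SEC10* (1.18) as higher, and *RDN5-1* (−2.16), *FRT2* (−1.22) and *BSC1* (−1.21) as lower. In none of the 6 did all vehicle arrays lie on 1 side of the enediyne range. *RDN5-1*, a 5S ribosomal RNA gene with near-identical copies, lay between 2.55 and 59.99 (median 13.0) with the enediynes and at 98.9, 58.0 and 10.7 with methanol, and limma gave −1.33 (standard error 0.75, unadjusted p = 0.0966), or −0.66 without methanol vehicle replicate 1. Without methanol vehicle replicate 1 this test called 15 genes (0.265%), 10 of them higher.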

How the data were processed

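The authors hybridized labelled cRNA to Affymetrix YG-S98 arrays and normalized the arrays with RMA, which corrects background, applies quantile normalization and summarizes probe sets, and deposited linear intensities. The log2 was taken, with no further scaling. Of 9335 probe sets 60 are controls, 6504 match 1 gene, 328 several and 2443 none in the platform annotation, and the brightest probe set per gene left 5656 genes. No Absent/Present filter was applied. Both the class contrast, the mean of the 3 enediyne group means minus the methanol vehicle mean, and the compound differences came from limma 3.58.1 in R 4.3.3 over all 18 arrays in 6 groups (12 residual degrees of freedom). The number of arrays limits the precision, and p-values measure the spread between replicate cultures. The script was tested on simulated data. Permutation tests used scipy 1.17.1.

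The named genes are the 10 largest differences in each direction among genes whose groups do not overlap, 6 in each direction without methanol vehicle replicate 1, the 2 members with the smallest p in each of 36 lists (736 of 823 genes measured), and the signature and ribonucleotide reductase genes. Members and lists were chosen with earlier results of these data known. After removal of group means, same-numbered enediyne and methanol vehicle arrays had correlations above 0.1 in all 3 pairs for calicheamicin and neocarzinostatin, but not for esperamicin A1 (−0.09 in 1 pair). The labels name no shared day or culture, so replicate number was used as a block only in alternatives. Sequences were not used here.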

Additional observations from a re-analysis of the deposited data

Results flagged for a closer look

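Of 114 measures over the 9 enediyne arrays, 4 had 1 array far from the others by Dixon's criterion, which chance alone meets in about 1 group in 20. *RNR3* was highest in neocarzinostatin replicate 1, at a log2 intensity of 7.83 against 6.90 in the nearest array, and *HUG1* was highest in the same array, at 7.97 against 7.29. *YCR087C-A* was lowest in esperamicin A1 replicate 1, at 4.10 against 4.41. *TOS4* was lowest in esperamicin A1 replicate 3, at 2.81 against 3.16.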

How the results depend on the processing

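The count of 0 called genes held in limma for the replicate block and every other change of model, scaling or filter, and became 6 in the local pooled error test. Leaving out 1 array gave 0 to 2 genes, with 2 (*NOP56* and *SEC10*) when methanol vehicle replicate 2 was omitted and 1 (*FRT2*) when replicate 3 was. With methanol vehicle replicate 1 omitted, alternatives chosen after seeing the data called 1 gene when the irradiation arrays were left out, 1 with the replicate block, 4 with the block within family (enediyne or irradiation arrays), 2 with array quality weights, 1 after cyclic loess and 15 by the local pooled error test. The single gene was *BSC1* for the first and second and *YOR302W* after loess, the 4 were *BSC1*, *FLO10*, *YOR302W* and *HSP30*, and the 2 were *BSC1* and *YOR302W*. They called 0 to 3 when 1 further array was left out (*YOR302W* alone for calicheamicin replicate 1, and 3, *TMH11*, *USO1* and *FRT2*, for methanol vehicle replicate 3). Over all probe sets there were 25, or 29 without calicheamicin, 31 without neocarzinostatin and 2 with the actin difference as a covariate. The pairing of replicate numbers rests on no label.

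The 42 genes beyond all vehicle arrays became 44 to 253 when 1 array was left out, which leaves fewer arrays to separate: 221, 179 and 253 for methanol vehicle replicates 1, 2 and 3, 90 for esperamicin A1 replicate 3 and 65 for neocarzinostatin replicate 1. There were 447 without methanol vehicle replicate 1 and all esperamicin A1 arrays, a setting chosen after seeing the data.

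Of 112 named genes, 24 changed sign in 54 cases over 26 settings, and the cause was not tested. With 1 array left out in turn, log2 differences that changed sign ran over −0.28 to 0.079 for *ADH3*, −0.22 to 0.20 for *ALG14*, −0.0093 to 0.16 for *DIF1*, −0.094 to 0.60 for *DSE2*, −0.20 to 0.58 for *FKS1*, −1.01 to 0.38 for *FLO10*, −0.17 to 1.07 for *HHO1*, −0.26 to 1.84 for *HSP30*, −0.15 to 0.088 for *HUG1*, −0.068 to 0.56 for *LAM5*, −0.72 to 0.23 for *PMA1*, −0.76 to 0.045 for *POL4*, −0.095 to 0.59 for *RAD54*, −0.0015 to 0.54 for *RPA190*, −0.11 to 0.43 for *RPA43*, −0.056 to 0.61 for *SML1*, −0.11 to 0.73 for *TPO2*, −0.068 to 0.28 for *WTM1*, −0.096 to 0.38 for *YJL068C* and −0.75 to 0.70 for *YOR302W*. Without methanol vehicle replicate 1 and esperamicin A1 the values with changed sign were −0.30 for *YOR302W*, 0.0099 for *POL4*, −0.095 for *HHO1*, 0.010 for *BUD4*, 0.059 for *ADH3*, −0.12 for *RPA43*, 0.066 for *RDN5-3*, −0.13 for *FKS1*, 0.16 for *ALG14*, −0.021 for *WTM1* and 0.16 for *HUG1*. Array quality weights gave −0.65 for *YOR302W*, 0.018 for *POL4*, −0.084 for *DSE2*, 0.098 for *ADH3*, −0.045 for *RPA43*, −0.080 for *FKS1*, 0.17 for *ALG14*, −0.037 for *RNR1*, −0.038 for *WTM1*, 0.033 for *HUG1* and −0.011 for *RFX1*. The local pooled error test gave −0.49 for *YOR302W*, −0.10 for *RPA43*, −0.11 for *FKS1*, 0.21 for *ALG14* and −0.040 for *WTM1*, and the actin covariate −0.27 for *YOR302W*, 0.056 for *ALG14* and 0.0041 for *HUG1*. List medians moved beyond the array spread in 8 cases, 5 of them without methanol vehicle replicate 1.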
